A study of Homo sapiens with 4 samples.

Results

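The genes described here encode the proteins of the mitochondrial ribosome. They were taken from a table of read counts as every symbol made of MRPL or MRPS, a number and at most 1 further letter, which gave 77 of 28930 genes. Of these, 48 carry an MRPL symbol, for the large subunit, and 29 an MRPS symbol, for the small subunit. The pattern of letters in the symbol was the rule, and it uses no measured value, although the family was picked with earlier results of these data known.

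The counts came from MDA-MB-231, an established human breast cancer cell line of triple-negative, mesenchymal type. The cells were described either as control or as siRNA knockdown of hTrmt13, a tRNA methyltransferase encoded by TRMT13. Each group had 2 libraries of total RNA, and the descriptions of the control name no siRNA. The siRNA sequence, its dose and the time of harvest are not stated in the labels, and neither group carries another stated allele or agent. Nothing states that replicates were separate cultures, so a p-value here speaks of the spread among these 4 libraries, possibly a technical one.

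Mitochondrial ribosomes, or mitoribosomes, translate the few mRNAs that mitochondrial DNA encodes, all of them for subunits of the respiratory chain and ATP synthase. Their rRNAs are transcribed inside the organelle, whereas all of their proteins are encoded in the nucleus, made in the cytosol and imported. Some of these proteins have bacterial counterparts and share their numbers, and others are found only in mitochondria.

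Libraries held between 9777267 and 13098985 counts, and the depth ranges of the groups overlapped. TRMT13 stood at 14.9 and 18.9 CPM in control against 3.52 and 4.79 in knockdown, low in both knockdown libraries as labelled. CPM are counts scaled to a common library size, here by the trimmed mean of M-values (TMM). The log2 fold change of TRMT13 was −2.02 (SE 0.34), with an adjusted p of 0.0399 by edgeR's quasi-likelihood test and the Benjamini-Hochberg method. The marker VIM, for vimentin, stood between 1769 and 1845 CPM in all 4 libraries. Of 6 genes this line expresses, 5 had values below 0 on the log2 scale and EGFR fell (−1.78, edgeR adjusted p = 0.0303). ESR1, PGR, MS4A1 and CD3E had 0 counts in every library, which allows up to 0.307 CPM in the shallowest, and CDH1 had at most 1. ERBB2 stood between 112.0 and 166.3 CPM and EPCAM between 2.19 and 6.34 CPM, and PTPRC and CD14 stayed under 1 CPM, on 1 to 12 counts.

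As a family, MRP genes leaned higher in the knockdown, but no single one passed in the main edgeR fit. That fit filtered low counts and had no replicate block. Of 76 tested, 57 had a log2 fold change above 0 and 19 below, that is 75% above, against 50.4% of all 13022 genes tested. The median was 0.26 (quartiles 0.03 and 0.50) against 0.01 over all genes tested. Of the 76, the values above 0 numbered 48 without control replicate 1 and 60 without control replicate 2. They numbered 61 without knockdown replicate 1 and 50 without knockdown replicate 2. In the edgeR quasi-likelihood test, 0 members rose and 0 fell at an adjusted p under 0.05, a threshold that 2.99% of all genes passed (1.03% higher and 1.96% lower). The smallest adjusted p of a member was 0.0721.

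At an unadjusted p under 0.05, 14 members were higher and 1 lower, that is 18.4% higher against 11.5% of all genes tested (12.5% lower). DESeq2 called 2 members higher (of all genes, 3.46%) and 0 lower (5.09%), and limma-voom called 0 in either direction (0.868% and 1.63%). With no filter on low counts, edgeR called 4 higher (4.43%) and 0 lower (6.03%). With a block for the replicate number it called 25 higher (19.3%) and 2 lower (20.8%), but no label states what equal numbers share. In the next 4 fits edgeR had a single library in 1 group, so the spread between replicates came from the other group alone. Without control replicate 1 it called 0 higher (1.47%), without control replicate 2 it called 2 (1.79%), without knockdown replicate 1 it called 1 (2.69%) and without knockdown replicate 2 it called 1 (2.26%). None was called lower in these 4 fits (3.57%, 3.71%, 4.24% and 3.06% of all genes). The 2 knockdown libraries lay above both control libraries in 36 members (47.4%, against 27.5% of all genes tested) and below both in 9 (against 26.8%), and the groups overlapped in the other 31. The extremes among the 76 members were −0.81 and 1.33 on the log2 scale. All 13022 genes tested, with means down to 0.50 CPM, ran from −7.49 to 7.36. A range widens with more genes and lower counts, so quartiles are the closer comparison. They were 0.03 and 0.50 in members and −0.40 and 0.39 over all genes tested.

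**Figure D1:**
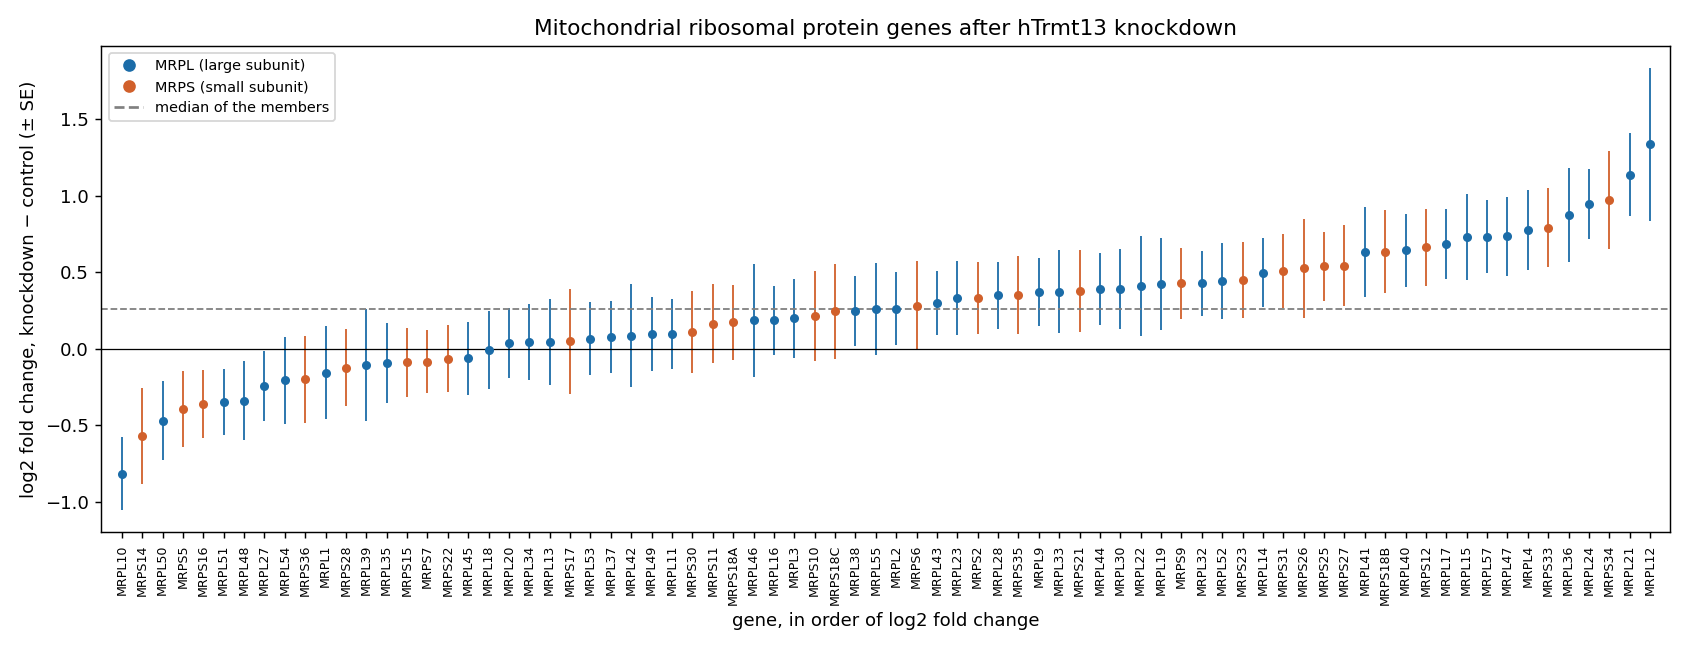
Log2 fold change (knockdown minus control, vertical axis) of the 76 tested MRP genes in rising order, with bars of 1 SE from the edgeR fit, MRPL genes in blue and MRPS genes in orange. Values run from −0.81 for MRPL10 to 1.33 for MRPL12 around a median of 0.26 (dashed), and both subunits are spread along the whole order.

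Summed over all 77 members, counts made up 0.316% and 0.358% of the counts in control against 0.396% and 0.417% in knockdown. Their 95% exact binomial intervals were 0.312 to 0.319%, 0.355 to 0.361%, 0.393 to 0.400% and 0.413 to 0.420%, for counting error only. Both knockdown libraries therefore lay above both control libraries, with control replicate 1 the lowest. On the TMM scale the control sum was 3389 ± 237 CPM and that of the knockdown 4042 ± 63.2 CPM (SD, n = 2 each), at a ratio of 1.19. In these bulk libraries, more RNA per cell and a different mix of cells cannot be told apart. Genes with the prefix MT- took 6.88% and 4.82% of the control counts and 6.25% and 5.18% of the knockdown counts, so that share overlapped between the groups.

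Members have short transcripts. The representative transcript (GENCODE 29) had a median of 1462 bases in MRP genes and 3219 bases over all genes tested, with a nearly equal median GC content of 48.9% and 48.8%. Over all 12169 genes with a length, log2 fold change and log2 length had r = −0.10, and over the 76 members r = −0.09. For transcript GC content, r was −0.006 over all these genes and 0.29 over the members. All points share the same 4 libraries. Members above their median GC content and those at or below it both had a median log2 fold change of 0.26. After a correction of each library for transcript GC content and length, added after seeing the data, the members' median was 0.14, with 48 values above 0. That correction called 5 members higher and 1 lower, against 6.12% and 7.31% of all genes, namely MRPL21, MRPL24, MRPL47, MRPS33 and MRPS34, and MRPL10 (edgeR adjusted p between 0.0286 and 0.0485). These 6 are named after their values were seen, and the parts of transcript length and GC content in the result were not tested.

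The large and the small subunit had nearly equal medians. The 48 MRPL genes had a median log2 fold change of 0.26, with 37 values above 0, and the 28 tested MRPS genes had a median of 0.26, with 20 above 0. At an unadjusted p under 0.05, 10 MRPL genes (20.8%) and 4 MRPS genes (14.3%) were higher, and 1 and 0 were lower. Of all genes tested, 11.5% were higher and 12.5% lower at that p, and the difference between subunits was not tested. Knockdown libraries lay above both control libraries in 24 of 48 MRPL and 12 of 28 MRPS genes, and below both in 5 and 4, against 27.5% and 26.8% of all genes tested.

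**Figure D2:**
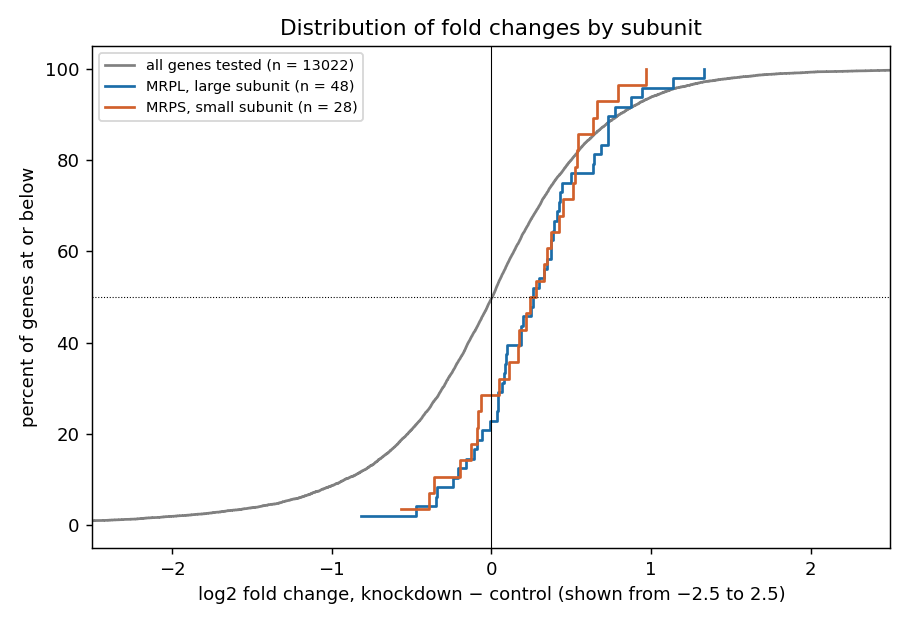
Cumulative percent of genes (vertical axis) at or below each log2 fold change (horizontal axis) for 48 MRPL genes in blue, 28 MRPS genes in orange and 13022 tested genes in grey. The curves of both subunits run together and cross the 50% line at 0.26, to the right of the grey curve at 0.01.

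Summed levels gave the same picture. MRPL genes summed to 2044 and 2268 CPM in control against 2514 and 2622 in knockdown. MRPS genes summed to 1178 and 1289 CPM in control against 1483 and 1464 in knockdown. In both sums the knockdown libraries were the higher, by 1.19-fold for MRPL and 1.20-fold for MRPS genes.

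The ratio of MRPL to MRPS counts, which does not depend on depth, was 1.74 and 1.76 in control against 1.69 and 1.79 in knockdown. The knockdown values bracketed the control values, so the groups overlapped. The mean log2 ratio differed by −0.005 between the groups, with a spread between replicates of 0.041 (pooled SD). The difference of the subunits' median log2 fold changes, large minus small, was −0.002, and it ran from −0.10 without control replicate 2 to 0.16 without knockdown replicate 2.

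**Figure D3:**
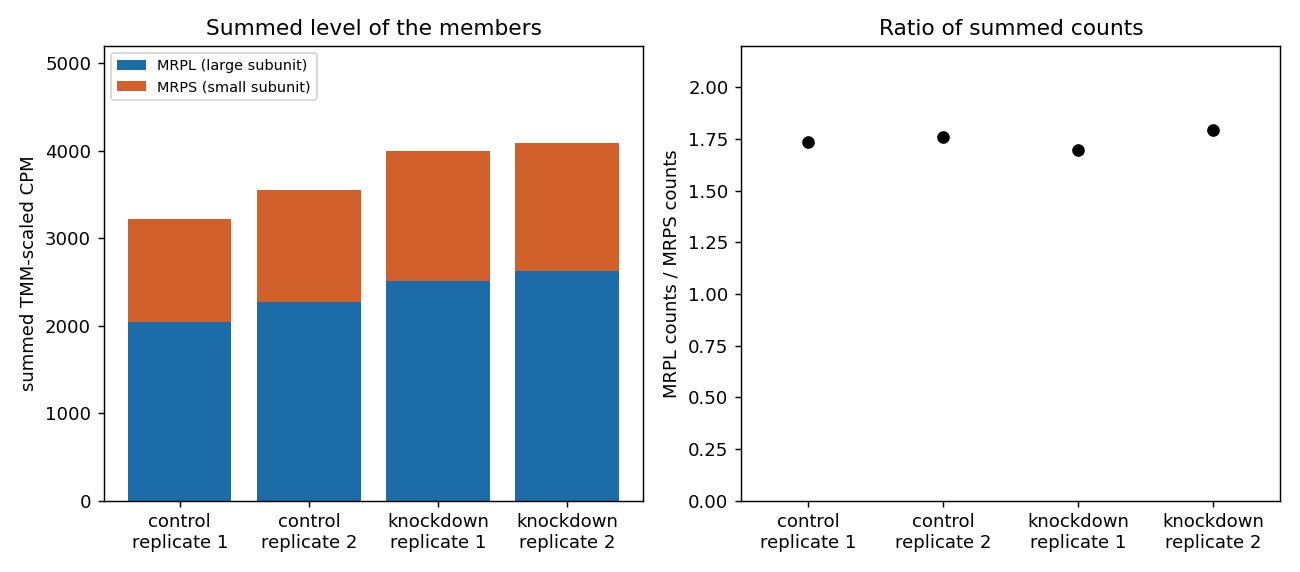
Left, summed TMM-scaled CPM of MRPL genes (blue) and MRPS genes (orange) as stacked bars for each of the 4 libraries; right, the ratio of MRPL to MRPS counts in the same libraries. The stacks are taller in both knockdown libraries, and the ratio stays between 1.69 and 1.79.

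Symbols do not always give the place in the ribosome. MRPS18A and MRPS30 lie in the large subunit of the human mitoribosome despite their names, and MRPS36 is now regarded as part of the oxoglutarate dehydrogenase complex. With these 3 moved or left out, the medians were 0.25 for 50 large and 0.33 for 25 small subunit genes. MRPS30 stood at 33.2 and 47.6 CPM in control against 43.3 and 44.0 in knockdown, inside the control range. MRPS36 stood at 18.8 and 25.4 CPM in control against 17.6 and 20.97 in knockdown, and the groups overlapped.

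MRPS18A, MRPS18B and MRPS18C are paralogs that all descend from the bacterial S18 protein. MRPS18B stood at 72.7 and 54.8 CPM in control against 115.4 and 82.5 in knockdown (log2 fold change 0.63, SE 0.27, edgeR adjusted p = 0.212). It lay above without overlap, as did 27.5% of all genes tested. MRPS18A stood at 37.2 and 31.3 CPM in control against 41.9 and 35.1 in knockdown, and MRPS18C at 16.5 and 20.8 CPM and at 17.7 and 26.5 CPM. The groups overlapped for both of these, at log2 fold changes of 0.17 and 0.24. In GENCODE 29 (GRCh38), 47.0% of the exon bases of MRPS18A and 40.2% of those of MRPS18C overlap a gene on the other strand, so that reads of such pairs cannot be told apart without the strand setting of the counting, which no label gives.

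The stalk of the large subunit, which receives translation factors, held both extremes of the family. MRPL12, the mobile stalk protein, stood at 1.98 and 5.65 CPM in control against 10.4 and 9.21 in knockdown, on 19, 73, 109 and 123 counts. Control replicate 1 was the lowest, and the knockdown lay above without overlap, as in 27.5% of all genes tested. The log2 fold change was 1.33 with an SE of 0.50 (edgeR adjusted p = 0.170). Without control replicate 2 it was 2.30, and without control replicate 1 it was 0.80. A protein-coding gene on the same strand overlaps 68.2% of its exon bases in GENCODE 29, and how reads in that stretch were counted is not stated.

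MRPL10, the protein through which MRPL12 is anchored, had the lowest value of the family. It stood at 38.8 and 42.9 CPM in control against 22.5 and 23.9 in knockdown, with both knockdown libraries low. The log2 fold change was −0.81 with an SE of 0.24 (edgeR adjusted p = 0.108). MRPL11, at the stalk base, stood at 49.4 and 58.3 CPM in control against 57.1 and 58.3 in knockdown, and is named after its values were seen.

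Among the other large subunit proteins, MRPL21 and MRPL24 had the smallest p-values of the family. MRPL21, a counterpart of bacterial L21, stood at 20.6 and 29.9 CPM in control against 53.3 and 57.7 in knockdown. Its log2 fold change was 1.14 with an SE of 0.27 (edgeR adjusted p = 0.0721), and it ran from 0.90 to 1.43 without 1 library. MRPL24, whose bacterial counterpart binds the large rRNA early in assembly, stood at 28.5 and 26.8 CPM in control against 54.2 and 52.1 in knockdown. Its replicates lay close together and the groups far apart, at a log2 fold change of 0.94 with an SE of 0.23 (edgeR adjusted p = 0.0737).

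MRPL36, the counterpart of a small zinc-binding protein of bacteria, stood at 8.25 and 11.8 CPM in control against 17.2 and 19.5 in knockdown, a log2 fold change of 0.87. MRPL57, known only from mitochondria and formerly MRP63, stood at 26.0 and 29.2 CPM in control against 48.9 and 42.9 in knockdown, a log2 fold change of 0.73. Both knockdown libraries lay above both control libraries in these 2 genes, as in 27.5% of all genes tested. Neither gene passed (edgeR adjusted p = 0.154 and 0.133). On the low side, MRPL50 stood at 21.4 and 24.4 CPM in control against 15.7 and 17.4 in knockdown, and MRPL51 at 80.1 and 87.2 CPM and at 62.7 and 68.6 CPM. These mitochondria-specific proteins had log2 fold changes of −0.47 and −0.35 and did not pass (edgeR adjusted p = 0.324 and 0.371). Both lay below without overlap of the groups, as did 26.8% of all genes tested. The choice of genes by their differences favours such gaps. An opposite-strand gene overlaps 31.3% of the MRPL51 exon bases.

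In the small subunit, MRPS34 and MRPS33 had the highest values. MRPS34, a mitochondria-specific protein needed for a stable small subunit, stood at 40.7 and 35.3 CPM in control against 95.4 and 53.7 in knockdown. Its knockdown libraries differed widely, and its log2 fold change of 0.97 (SE 0.32) did not pass (edgeR adjusted p = 0.135). Without 1 library the log2 fold change of MRPS34 ran from 0.51 to 1.33. MRPS33, also mitochondria-specific, stood at 16.6 and 17.2 CPM in control against 26.2 and 32.4 in knockdown, a log2 fold change of 0.79 with an SE of 0.26 (edgeR adjusted p = 0.134).

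The lowest values of the small subunit belonged to counterparts of bacterial proteins. MRPS14 stood at 17.9 and 14.8 CPM in control against 9.13 and 12.8 in knockdown, a log2 fold change of −0.57. MRPS5 stood at 60.1 and 50.4 CPM in control against 46.7 and 37.5 in knockdown, a log2 fold change of −0.39. MRPS16, mutated in an inherited mitochondrial translation defect, stood at 86.5 and 89.4 CPM in control against 62.2 and 74.98 in knockdown, a log2 fold change of −0.36. In all 3, named for their low values, the knockdown libraries lay below the control libraries (26.8% of all genes tested). None passed (edgeR adjusted p between 0.319 and 0.381).

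**Figure D4:**
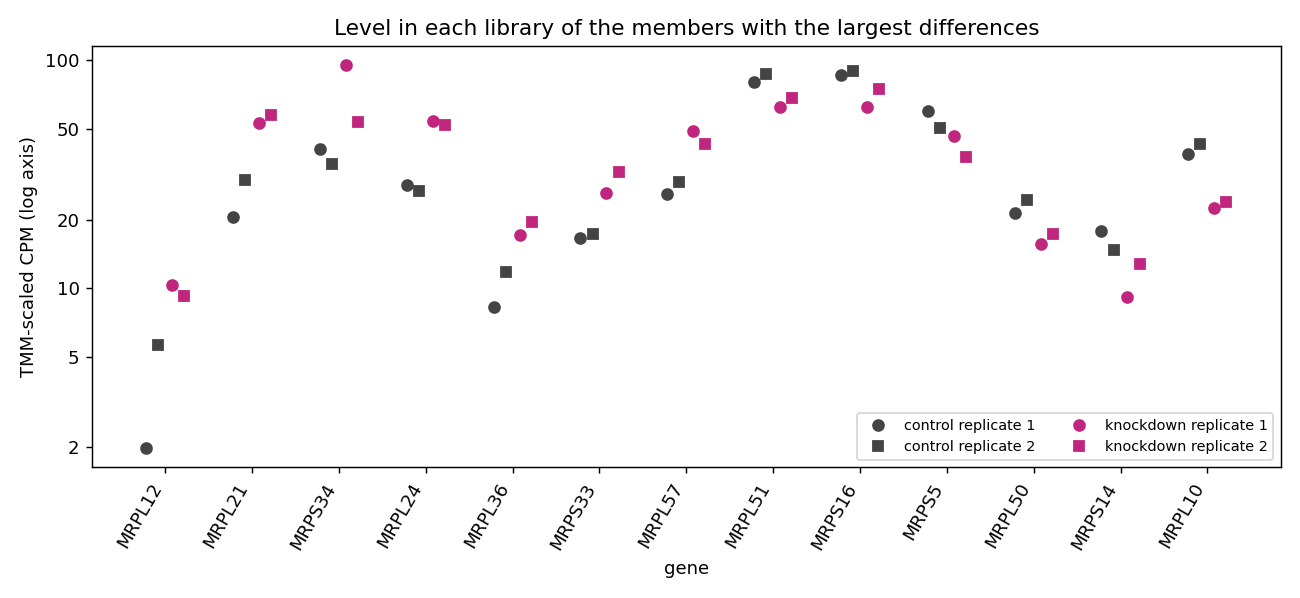
TMM-scaled CPM (vertical, log axis) in each library of the 13 members with the highest and lowest log2 fold changes or the smallest p, with control in grey, knockdown in magenta, replicate 1 as circles and replicate 2 as squares. In all 13 the knockdown libraries lie on one side of the control libraries, which the choice of genes by these differences favours. Of all genes tested, 27.5% lay above in both knockdown libraries and 26.8% below. MRPL12 and MRPS34 show the widest gaps between replicates.

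Levels within the family differed far more than the groups did. Per kilobase of representative transcript, the mean over the 4 libraries had a median of 38.5 CPM per kilobase in MRPL genes and 27.6 in MRPS genes, against 9.85 over all genes tested with a length. The highest MRPL levels were those of MRPL33 at 106.1, MRPL52 at 80.1 and MRPL43 at 77.6 CPM per kilobase. In the libraries MRPL33 stood at 57.4 and 38.4 CPM in control against 62.2 and 61.8 in knockdown.

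The highest MRPS levels were those of MRPS15 at 61.1, MRPS7 at 57.7 and MRPS34 at 54.95 CPM per kilobase. MRPS7, which binds the head of the small subunit, stood at 83.0 and 83.9 CPM in control against 77.4 and 80.1 in knockdown, a log2 fold change of −0.08. MRPS15 stood at 58.6 and 68.1 CPM in control against 56.3 and 62.8 in knockdown, and the groups overlapped. The lowest levels tested were MRPL42 at 4.31 and MRPS17 at 2.75 CPM per kilobase. A lower level per kilobase can also come from a long representative transcript, and that of MRPL42 has 15582 bases. Same-strand genes overlap 21.1% of the MRPL33 exon bases and 21.8% of those of MRPS17, and opposite-strand genes 32.7% of those of MRPL43.

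MRPS24 was the member that could not be tested, with 2 counts in knockdown replicate 1 and 0 in the other 3 libraries. A count of 0 allows up to 0.307 CPM in control replicate 1. The read-through gene URGCP-MRPS24, which shares 23.2% of the MRPS24 exon bases in GENCODE 29, was listed at 0 in every library. The shared stretch has 606 bases, and the representative MRPS24 transcript has 707. How reads in that stretch were counted is not stated, so these counts may not give the level of MRPS24. A difference in MRPS24 could not be measured from them.

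The deposited data do not bear on promoters. Upstream sequences of the family are given as background, and a link to the fold changes was not tested. RefSeq promoter windows (GRCh38.p14) matched 68 of the 77 symbols, and the 250 bases before each start were searched on both strands, a symbol with several starts counting as a match if any window held the letters. The letters CCGGAAG, a core recognised by ETS factors such as GABPA, occurred in 24 of 68 members (35.3%), against 10.2% of all 27305 symbols with a window and 18.9% of the 9686 tested genes. GCGCA and GCGC with any 1 base between them, a motif of NRF1, occurred in 9 members (13.2%), against 6.20% and 11.9%. CCAAT occurred in 21 members (30.9%), against 37.0% and 41.8%. ETS letters were present in 34.1% of the MRPL and 37.0% of the MRPS symbols with a window.

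Log2 fold changes of members with and without these letters are given as a description, with no test of the difference. Members with ETS letters had a median of 0.25 over 24 genes, and those without had 0.33 over 43. Members with NRF1 letters had a median of 0.50 over 9 genes, with 8 above 0, and those without had 0.25 over 58. A match is a description of the letters and not a bound site.

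Upstream stretches of 3 of the members with high log2 fold changes are shown because they differ in these letters, 5′ to 3′ on the gene's strand and ending at a RefSeq start, with matches in capitals. MRPL24 (chr1:156741089-156741338, minus strand) had no match, MRPS33 (chr7:141014953-141015202, minus strand) had 1 NRF1 match, and MRPS34 (chr16:1773135-1773214, minus strand) had 3 ETS matches within 80 bases, which read CTTCCGG on the gene's strand and CCGGAAG on the other. MRPS33 has another RefSeq start, whose window (chr7:141014680-141014929, not shown) had 0 NRF1 matches.
MRPL24: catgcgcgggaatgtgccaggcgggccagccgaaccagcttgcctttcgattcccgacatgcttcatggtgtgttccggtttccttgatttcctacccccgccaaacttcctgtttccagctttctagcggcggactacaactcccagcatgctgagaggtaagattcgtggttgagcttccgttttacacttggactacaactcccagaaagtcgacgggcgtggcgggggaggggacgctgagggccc
MRPS33: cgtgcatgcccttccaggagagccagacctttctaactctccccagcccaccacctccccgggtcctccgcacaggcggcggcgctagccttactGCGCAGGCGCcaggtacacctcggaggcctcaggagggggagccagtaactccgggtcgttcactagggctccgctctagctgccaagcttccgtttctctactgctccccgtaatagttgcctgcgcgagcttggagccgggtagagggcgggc
MRPS34: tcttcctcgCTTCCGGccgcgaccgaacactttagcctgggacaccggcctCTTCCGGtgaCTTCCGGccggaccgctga

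Of 6 mitoribosome proteins without an MRPL or MRPS symbol in the table, 5 had a log2 fold change above 0, and 0 passed (2.99% of all genes). The median was 0.51, and values ran from −0.01 to 0.84. CHCHD1, a small subunit protein, stood at 23.9 and 34.7 CPM in control against 44.6 and 60.2 in knockdown, a log2 fold change of 0.84 (edgeR adjusted p = 0.153). GADD45GIP1, a large subunit protein, stood at 43.0 and 53.4 CPM in control against 101.4 and 63.4 in knockdown, a log2 fold change of 0.77 (edgeR adjusted p = 0.177). The groups overlapped in neither, and 27.5% of all genes tested lay above in the same way.

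In the main fit, the 2 genes that passed in the mitochondrial lists were assembly factors, the longest of these lists. Of 27 tested, 1 rose and 1 fell (2 of 27, against 2.99% of all genes), 20 had a log2 fold change above 0 and the median was 0.34. NOA1, a GTPase that acts on the small subunit, fell from 24.5 and 27.8 CPM in control to 7.70 and 7.34 CPM in knockdown, 3.48-fold lower (log2 fold change −1.80, SE 0.27, edgeR adjusted p = 0.0357). WBSCR16, now RCC1L, a factor tied to modification of the large mitochondrial rRNA, rose from 12.8 and 14.8 CPM to 42.2 and 33.3 CPM, 2.73-fold (log2 fold change 1.45, SE 0.27, edgeR adjusted p = 0.0446). The call on WBSCR16 ended without control replicate 1 (1.36, edgeR adjusted p = 0.0775) and with limma-voom (adjusted p = 0.0507).

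Factors that work with the finished ribosome gave 0 passing genes, against 2.99% of all genes. Lists this short may hold 0 at that share, so the counts do not set the lists apart. In 16 mitochondrial translation factors, 13 values were above 0 and the median was 0.42. SLIRP, the partner of LRPPRC in holding mitochondrial mRNAs stable, stood at 20.1 and 28.5 CPM in control against 39.1 and 47.7 in knockdown, a log2 fold change of 0.83 (edgeR adjusted p = 0.139). LRPPRC went the other way, at 193.8 and 235.1 CPM in control against 123.4 and 182.7 in knockdown. Its log2 fold change was −0.49 (edgeR adjusted p = 0.310), and it is named after its values were seen. MTFMT, which formylates the initiator tRNA, had a log2 fold change of 0.73 (edgeR adjusted p = 0.177).

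In 17 mitochondrial tRNA synthetases, 14 values were above 0 and the median was 0.50. EARS2, for glutamate, stood at 24.4 and 27.6 CPM in control against 63.0 and 53.2 in knockdown, a log2 fold change of 1.16 (edgeR adjusted p = 0.0579). TARS2, for threonine, stood at 29.6 and 33.1 CPM in control against 61.3 and 61.1 in knockdown, a log2 fold change of 0.96 (edgeR adjusted p = 0.0709). Neither overlapped between the groups, and 27.5% of all genes tested lay above in the same way.

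Genes that maintain and transcribe mitochondrial DNA were mixed, with 7 of 10 values above 0, a median of 0.38 and 0 passing (2.99% of all genes). TFAM, which packages mitochondrial DNA and starts its transcription, stood apart from this list at 68.2 and 109.8 CPM in control against 14.1 and 29.3 in knockdown. Its log2 fold change was −2.03 with an SE of 0.41 (edgeR adjusted p = 0.0560). Without 1 library that value ran from −2.66 to −1.59. With upper-quartile scaling it was −2.05 and TFAM passed (edgeR adjusted p = 0.0475), where 3.25% of all genes did. C10orf2, which encodes the helicase Twinkle, stood at 52.9 and 56.5 CPM in control against 117.7 and 79.2 in knockdown (log2 fold change 0.85, edgeR adjusted p = 0.121).

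The mRNAs that mitoribosomes translate had values on both sides of 0. Of the 13 mitochondrially encoded mRNAs, 5 had a log2 fold change above 0 and 8 below, from −0.95 to 0.31 with a median of −0.13, and 0 passed (2.99% of all genes). That median was 0.12 without control replicate 1, −0.30 without control replicate 2, −0.22 without knockdown replicate 1, −0.05 without knockdown replicate 2 and −0.39 with the GC and length correction, so 1 library turned its sign. Of 10 regulators of mitochondrial biogenesis, 6 were above 0 with a median of 0.04 and 0 passing, and the median was −0.07 without control replicate 1, 0.14 without control replicate 2, 0.009 without knockdown replicate 1 and 0.13 with that correction. MYC stood at 101.9 and 115.2 CPM in control against 169.6 and 134.9 in knockdown (log2 fold change 0.49, edgeR adjusted p = 0.244). YY1 stood at 100.8 and 109.7 CPM in control against 82.2 and 82.9 in knockdown (log2 fold change −0.35, edgeR adjusted p = 0.351). At an unadjusted p under 0.05, against 11.5% of all genes higher, there were higher 3 of 6 other subunits, 7 of 27 assembly factors, 6 of 16 translation factors, 4 of 17 tRNA synthetases, 3 of 10 mitochondrial DNA genes, 0 of 13 mitochondrial mRNAs and 0 of 10 regulators. Lower, against 12.5% of all genes, were 2 assembly factors, 1 mitochondrial DNA gene and 1 mitochondrial mRNA.

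**Figure D5:**
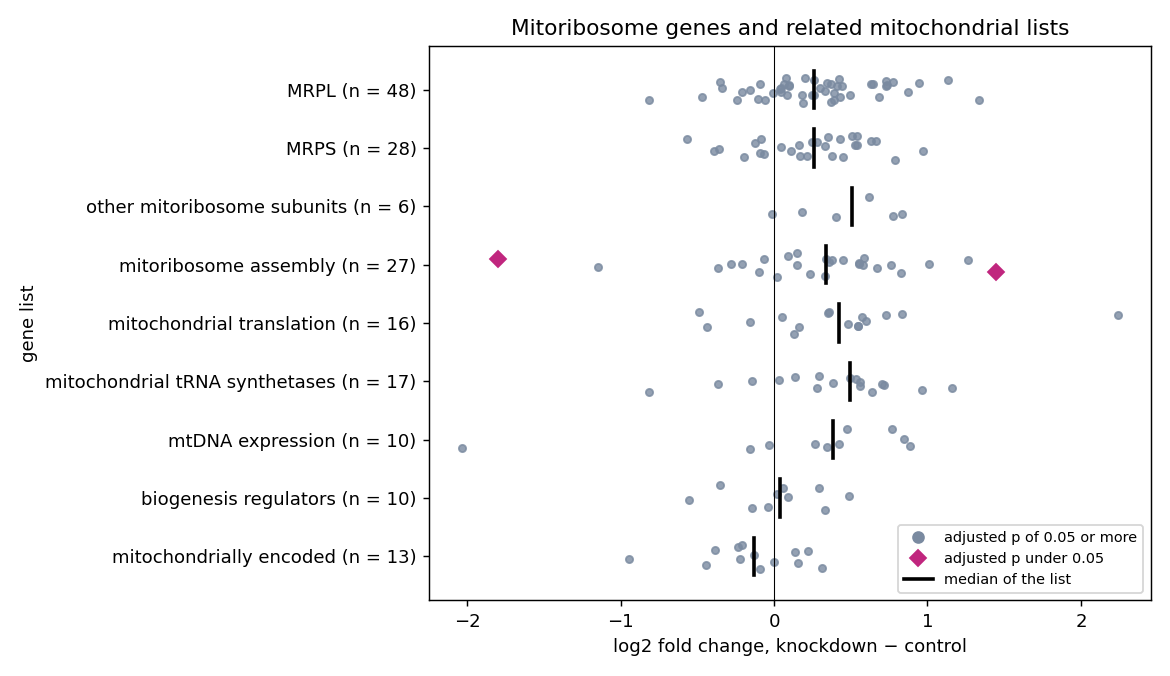
Log2 fold change (knockdown minus control, horizontal axis) of single genes in MRPL, MRPS and 7 related lists, with the list median as a black bar and genes at an adjusted p under 0.05 as diamonds; vertical scatter within a list has no meaning. The 2 diamonds, NOA1 at −1.80 and WBSCR16 at 1.45, are assembly factors, and the lowest point of the mtDNA list is TFAM at −2.03.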

How the data were processed

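The authors deposited 1 table of raw counts by gene symbol for 4 libraries, whole numbers with a different total each, from total RNA prepared with an Illumina TruSeq kit, per the labels' protocols. Tools listed in the submitters' processing notes, with no roles, are STAR 2.5.2b, HTSeq 0.6.1, limma and cutadapt, and the builds are hg19 and GRCh37. For the annotation, the strand setting and filters, the sources used here give nothing.

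Groups and replicate numbers came from the sample descriptions. Counts were fitted over all genes with edgeR 4.0.16 in R 4.3.3 (TMM, filterByExpr with a minimum count of 10 and total of 15, quasi-likelihood test, no covariate), which left 13022 genes. Adjusted p-values are Benjamini-Hochberg over all of them, with a threshold of 0.05. The common biological coefficient of variation was 0.246. Alternatives used DESeq2 1.42.0, limma 3.58.1 (voom), other scalings and filters, the replicate block, each library left out, and a loess correction (span 0.3) for transcript GC content and length. The fit was tested on simulated data.

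The members and lists were chosen with earlier results of these data known. Named genes were TRMT13, the 6 members with the highest and lowest log2 fold change at a mean of 5 CPM or more, the 6 with the smallest p, the 3 highest and the lowest MRPL and MRPS genes per kilobase, the MRPS18 paralogs, MRPS24, MRPS30 and MRPS36, per list the passing genes or else the 2 with the smallest p, and VIM and CDH1. Lengths, GC content and exon overlaps are from GENCODE 29 (GRCh38), which is not the authors' build; all 77 members matched by symbol. Windows are from RefSeq.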

Additional observations from a re-analysis of the deposited data

How the results depend on the processing

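The count of MRP genes past the threshold depended on the fit. Against 0 higher and 0 lower, there were 4 higher with no filter on low counts (MRPL12, MRPL21, MRPL24 and MRPS34, chosen after their values were seen), 2 higher with DESeq2 (MRPL21 and MRPL24), and 5 higher and 1 lower with the GC and length correction. Without 1 library, between 0 and 2 were higher and 0 lower. Replicate numbers are shared by the groups, and the library numbers in the titles run consecutively within each replicate number, but no label states what equal numbers share. Deviations of equal numbers correlated with r = 0.64 over all genes and 0.33 over members, which are not independent. With the replicate block, 25 members were higher and 2 lower (MRPL10 and MRPS14), where 5227 genes (40.1%) passed in all, 19.3% higher and 20.8% lower. The genes passing in all were 389, and 1949 with no filter, 1130 with DESeq2, 1635 with the GC and length correction, and 678 to 935 without 1 library.

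The members' median log2 fold change of 0.26 was 0.14 with the GC and length correction and 0.23 to 0.34 without 1 library, and under every alternative run it was above 0 and above the median of all genes. The large minus small difference ran from −0.10 to 0.16 without 1 library. The difference of log2 large to small ratios, −0.005, was 0.13 from the median of log2 CPM and −0.04 to 0.04 without 1 library. Signs turned without 1 library for MRPL42 (−0.41 to 0.46), MRPS15 (−0.19 to 0.025), MRPS17 (−0.074 to 0.18), MRPS18C (−0.078 to 0.51), MRPS30 (−0.12 to 0.40) and MRPS36 (−0.39 to 0.038), for the medians of mitochondrially encoded mRNAs (−0.30 to 0.12) and biogenesis regulators (−0.07 to 0.14), and with the GC and length correction for MRPS17 (−0.058) and VIM (−0.055). The causes were not tested. With 2 libraries a group, each test borrows its estimate of the spread from all genes. Without 1 library, a group holds a single library, and the spread between replicates comes from the other group alone.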

Other observations

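Some members start close to another gene. In GENCODE 29, 17 of the 77 MRP genes (22.1%) had a head-to-head protein-coding neighbour on the other strand, starting within 1000 bases. Of 19936 protein-coding symbols, 7.27% had such a partner. Pairs whose 5′ ends overlap were not counted in either share. Of the partners, 14 entries could be tested, 9 had a log2 fold change above 0, and their median was 0.08 with 0 past the edgeR threshold. The 17 members themselves had a median of 0.39, and the other 59 tested had 0.26. MRPL46 and MRPS11 are each other's partner, 34 bases apart, and had log2 fold changes of 0.19 and 0.16. MRPL36 and NDUFS6, a complex I subunit gene, start 34 bases apart and stood at 0.87 and 0.44, and MRPL47 and NDUFB5, also of complex I, start 36 bases apart and stood at 0.73 and 0.47. MRPL21 and IGHMBP2, 7 bases apart, stood at 1.14 and −0.11, and MRPS34 and EME2, 52 bases apart, at 0.97 and 0.06. These pairs are named after their values were seen.

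Members that carry numbers of the bacterial series (MRPL up to 36 and MRPS up to 21) did not stand apart from those numbered above it. The first group had a median log2 fold change of 0.27 over 44 genes, with 34 above 0, and the second 0.25 over 32 genes, with 23 above 0.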
